A study of Homo sapiens with 15 samples.

Results

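The loops described here are the H3K27ac chromatin loops of LNCaP cells whose contact frequency at 30 m of dihydrotestosterone (DHT) was at least 2 times that at 0 m and at 4 h. They were selected by a rule on the H3K27ac values of these 3 time points, among the 51711 loops that held at least 15 read pairs at 30 m. The rule kept 2370 loops, which is 4.58% of those 51711, and 49341 loops did not meet it. The whole H3K27ac set has 296326 loops, and the series has 505995 different loops when the H3K27ac and H3K4me3 sets are joined. The working name of these loops was transient, but the contact at 30 m was at least 2 times that at both 16 h and 72 h in only 277 of them (11.7%), so they are called loops high at 30 m below.

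H3K27ac and H3K4me3 HiChIP was done in LNCaP, an established prostate cancer line that responds to androgen, kept for 3 days in medium with charcoal-stripped serum, which is depleted of steroids. Cells at 0 m received vehicle (EtOH), and the others received DHT at 10 nM and were taken after 30 m, 4 h, 16 h and 72 h. The labels give 2 H3K27ac and 1 H3K4me3 sample per time point, but 1 value per loop, mark and time point was deposited. No value therefore has a replicate error, no test between time points could be made, and the 95% intervals given cover counting error only.

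HiChIP joins DNA ends that lie close together in fixed nuclei, and then pulls down the joined fragments that carry a histone mark. H3K27ac marks active enhancers and promoters, and H3K4me3 marks promoters, so that a loop in these data is a pair of places of which at least one carried the mark. DHT binds the androgen receptor, a nuclear receptor that binds DNA at pairs of a short half-site and switches on genes of the luminal prostate cell. A change in H3K27ac contact can come from the acetylation at the anchors or from how often they meet, and the values do not separate these.

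Each contact is a signal that the authors brought to a common scale over the 5 time points of each mark. All values (100%) were whole multiples of 1 smallest step, which is the worth of 1 read pair, so read pairs could be recovered. The H3K27ac libraries held between 2475168 (0 m) and 4308555 (30 m) read pairs in loops, and the H3K4me3 libraries between 2153262 (30 m) and 10675614 (4 h). The 30 m H3K27ac library was thus the deepest and the 0 m library the shallowest. With all libraries scaled to equal totals in place of the deposited scale, 2005 loops (84.6% of the number above) met the rule. As a check of the cell type, all 11 luminal prostate genes looked at had H3K27ac loops, and the 3 basal epithelial genes (KRT5, KRT14 and TP63) had none. Of 6 genes of other cell types only CD3E had any, with 5 loops.

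The anchors are 1 kb windows on GRCh37 (hg19), and the middle 300 bases of 5 of them are printed to show the kinds of sequence at these anchors, from the promoters of named loops to an intron poor in GC. They run 5′ to 3′ on the plus strand, and capitals mark each CG dinucleotide. The first 2, at IRF2BP2 and ZBTB7A, lie in promoters and belong to loops with the most read pairs at 30 m.
IRF2BP2 loop, chr1:234747351-234747650: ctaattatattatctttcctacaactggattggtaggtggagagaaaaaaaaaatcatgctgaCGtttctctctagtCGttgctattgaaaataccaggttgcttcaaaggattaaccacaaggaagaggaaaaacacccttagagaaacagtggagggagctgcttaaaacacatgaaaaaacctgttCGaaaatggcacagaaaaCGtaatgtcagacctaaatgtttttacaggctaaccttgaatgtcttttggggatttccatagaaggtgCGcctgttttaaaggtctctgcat
ZBTB7A loop, chr19:4067351-4067650: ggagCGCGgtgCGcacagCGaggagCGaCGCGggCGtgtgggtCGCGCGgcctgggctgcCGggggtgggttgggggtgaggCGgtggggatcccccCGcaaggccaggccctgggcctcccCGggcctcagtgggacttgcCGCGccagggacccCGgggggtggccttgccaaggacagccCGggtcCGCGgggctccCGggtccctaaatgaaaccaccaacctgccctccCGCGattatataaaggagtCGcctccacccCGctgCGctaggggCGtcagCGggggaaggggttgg
The next 2 belong to loops with some of the largest ratios at 30 m, and also lie in promoters.
CHFR and ZNF605 loop, chr12:133532351-133532650: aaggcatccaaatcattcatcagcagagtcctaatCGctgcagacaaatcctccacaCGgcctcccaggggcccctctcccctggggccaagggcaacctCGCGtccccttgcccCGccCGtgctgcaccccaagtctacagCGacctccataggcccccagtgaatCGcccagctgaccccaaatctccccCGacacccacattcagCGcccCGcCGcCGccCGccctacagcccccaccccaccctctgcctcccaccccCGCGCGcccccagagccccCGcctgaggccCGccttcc
SRRT loop, chr7:100472351-100472650: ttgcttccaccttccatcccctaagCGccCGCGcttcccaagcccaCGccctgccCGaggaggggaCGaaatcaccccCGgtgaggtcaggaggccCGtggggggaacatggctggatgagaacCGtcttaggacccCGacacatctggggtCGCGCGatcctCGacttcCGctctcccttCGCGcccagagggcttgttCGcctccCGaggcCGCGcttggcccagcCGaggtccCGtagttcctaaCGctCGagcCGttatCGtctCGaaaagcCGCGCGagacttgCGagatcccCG
The last is an intron of PLD5, from the loop of lowest GC content among those with at least 60 read pairs at 30 m.
PLD5 loop, chr1:242387351-242387650: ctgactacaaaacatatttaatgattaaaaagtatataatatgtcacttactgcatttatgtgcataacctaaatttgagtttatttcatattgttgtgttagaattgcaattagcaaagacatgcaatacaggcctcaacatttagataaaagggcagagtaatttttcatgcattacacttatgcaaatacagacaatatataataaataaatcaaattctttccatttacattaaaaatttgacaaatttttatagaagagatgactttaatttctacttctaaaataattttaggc
These stretches differ widely in base composition. The PLD5 stretch has a GC content of 25% and no CG, the IRF2BP2 stretch 38.7% with 5 CG, and the ZBTB7A stretch 73.7% with 29 CG. The SRRT stretch holds 33 CG at a GC content of 66.0%.

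The H3K27ac contact of the loops high at 30 m was low at 0 m and 4 h by selection. At 16 h and 72 h, which the rule did not use, its mean was close to that at 30 m. In order of time from 0 m to 72 h, an order kept for all lists of 5 values below, their mean contact was 2.48, 6.64, 2.66, 6.65 and 6.22. Their median contact was 1.47, 3.96, 1.5, 3.18 and 3.16, on a median of 5, 22, 7, 15 and 12 read pairs. The medians at 16 h and 72 h lay between those of 4 h and 30 m.

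The summed contact at 16 h differed from that at 30 m by a log2 change of 0.00 (95% interval -0.01 to 0.02), and at 72 h by -0.09 (-0.11 to -0.08). The median log2 change of single loops was -0.44 at 16 h and -0.41 at 72 h. The sum and the median differ since the strongest loops rose further. The log2 change of the sum at 16 h against 30 m was 0.36 over loops of at least 60 read pairs at 30 m and -0.49 over those of 15 to 19. In the other loops of at least 15 read pairs, the sums changed by 0.27 at 16 h and 0.10 at 72 h, and the medians by -0.01 and -0.07. The changes of the sum depended on the choice of loops and scale. With at least 30 read pairs at 30 m, the loops high at 30 m gave 0.20 and 0.05, so that 72 h turned positive. The other loops gave 0.34 and 0.14 there. With libraries at equal totals the changes were -0.18 and -0.20, against 0.11 and 0.03 in the other loops. In loops of at least 20 kb they were -0.36 and -0.37, against 0.05 and -0.07. Any ratio to 30 m carries the selection of high values at 30 m, and any ratio to 0 m or 4 h carries that of low values there.

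**Figure D1:**
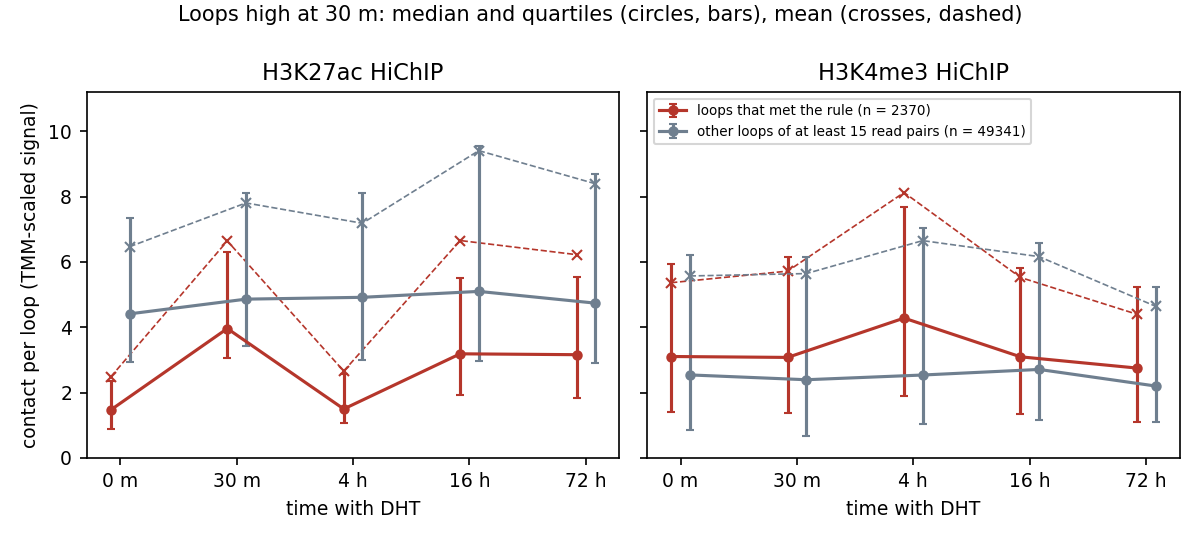
Contact per loop (TMM-scaled signal) against time with DHT, for H3K27ac on the left and H3K4me3 on the right, in the 2370 loops high at 30 m and the 49341 other loops of at least 15 read pairs; circles and bars are the median and quartiles, crosses the mean. In H3K27ac the selected loops had medians of 1.47, 3.96, 1.5, 3.18 and 3.16, and in H3K4me3 their median was highest at 4 h (4.28).

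At the level of single loops, 30 m was the highest of the 5 time points in 1511 of 2370 (63.8%), 16 h in 489 (20.6%) and 72 h in 370 (15.6%). Neither 0 m nor 4 h could be the highest, by the rule, so the 24.4% of the other loops with the highest value at 30 m is a background only. The contact was above both 0 m and 4 h at 16 h in 83.5% and at 72 h in 86.7% of the loops, and at both later times in 1807 (76.2%). It was at least 2 times 0 m and 4 h at both later times in 626 (26.4%). The other loops gave 48.1%, 44.8%, 34.9% and 3.62%, but all these shares carry the selection of low values at 0 m and 4 h, and nothing is read from the difference. At 16 h it reached or passed the 30 m value in 636 (26.8%) and at 72 h in 572 (24.1%), against 49.6% and 45.6% of the other loops, which the rule did not select for high values at 30 m. Most loops thus lay below their 30 m value at each of the later times.

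Single loops rest on few read pairs. The counting intervals of both ratios that the rule used lay above 1 in 1180 loops (49.8%), and their lower bounds reached 2 in only 17 (0.717%). At 16 h the interval of the ratio to 30 m held 1 in 1813 loops (76.5%), lay below it in 408 (17.2%) and above it in 149 (6.29%). At 72 h it held 1 in 1940 (81.9%), lay below it in 319 (13.5%) and above it in 111 (4.68%).

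**Figure D2:**
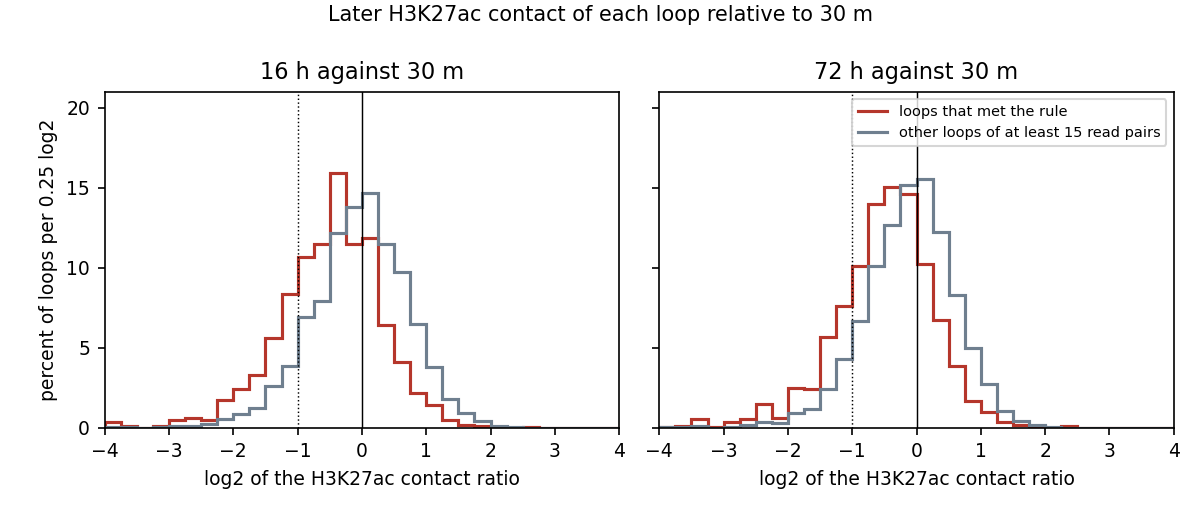
Percent of loops per 0.25 log2 of the H3K27ac contact ratio of 16 h to 30 m (left) and of 72 h to 30 m (right), for the loops high at 30 m and the other loops of at least 15 read pairs; the solid line marks no change and the dotted line a contact 2 times lower than at 30 m. The selected loops centred on -0.44 and -0.41 and the other loops on -0.01 and -0.07, and both groups spread to both sides of 0.

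The loops were split into 3 courses by their contact at 16 h and 72 h. In 277 loops (11.7%) the contact at 30 m was at least 2 times that of every other time point, which is the transient course. Of the other loops, none of which met the rule, 3.56% had a 30 m contact of at least 2 times 16 h and 72 h. The 277 loops had a median H3K27ac contact of 1.18, 3.24, 1.28, 1.27 and 1.32. In 622 further loops (26.2%) both later times were at least 2 times 0 m and 4 h, and 4 more loops that met this were counted with the 277. The 622 had medians of 1.47, 4.59, 1.60, 5.52 and 5.53. The remaining 1471 loops (62.1%) had medians of 1.47, 3.96, 1.5, 2.76 and 2.89.

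The loops of the transient course were longer and weaker than the others. Their median distance between anchors was 55 kb, against 40 kb in the loops that rose again and 45 kb in the remaining loops, and they held a median of 18 read pairs at 30 m, against 25.5 in the loops that rose again. Their median GC content was 51.9%, against 48.2% and 49.8%. A promoter lay at an anchor of 75.1%, 70.1% and 73.6% of the loops, respectively. The H3K4me3 set, which the authors called separately, held 39.4% of the transient loops, 57.6% of those that rose again and 50.8% of the remaining ones.

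**Figure D3:**
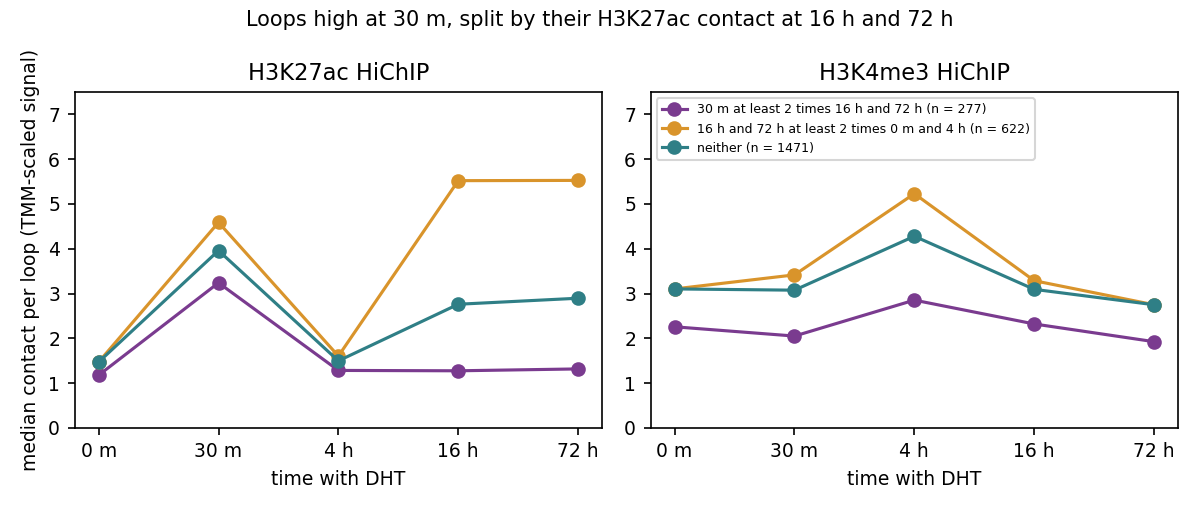
Median contact per loop (TMM-scaled signal) against time with DHT in H3K27ac (left) and H3K4me3 (right), for the loops high at 30 m split into 277 with 30 m at least 2 times 16 h and 72 h, 622 others with 16 h and 72 h at least 2 times 0 m and 4 h, and 1471 with neither; 4 loops that met both are in the first group. The groups were made from the H3K27ac values on the left, where the first returns to 1.27 at 16 h and the second reaches 5.52, and all 3 were highest at 4 h in H3K4me3.

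The strongest loops, 1 per locus, were mostly short and rose further at 16 h. Of the 12 with the most read pairs at 30 m, 10 joined anchors 5 kb apart, 10 had a promoter at an anchor and 10 had a higher H3K27ac contact at 16 h than at 30 m. In H3K4me3, all 12 were higher at 4 h than at 0 m, and 11 were highest at 4 h.

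The strongest was the loop from an intergenic anchor to the promoter of CAPNS1, the small subunit of calpain, a calcium-dependent protease. Its H3K27ac contact was 44.1, 115, 52.1, 263 and 207, on 150, 637, 244, 1240 and 787 read pairs. At 16 h it lay above 30 m by 1.20 on the log2 scale (1.06 to 1.34). Its H3K4me3 contact was 69.1, 74.8, 108, 64.6 and 36.3, so the marks were highest at different times.

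The loop from the exon to the promoter of IRF2BP2, a transcriptional corepressor, had H3K27ac contacts of 40.6, 101, 41.0, 143 and 160. Its H3K4me3 contact went from 17.5 at 0 m and 15.7 at 30 m to 53.7 at 4 h, a log2 change from 0 m of 1.62 (1.24 to 2.02). A loop within an intron of ZC3HAV1, an antiviral protein that binds CG-rich RNA, had no promoter at either anchor and H3K27ac contacts of 37.3, 91.6, 40.8, 284 and 301. It was the member of these 12 with the largest change from 30 m to 16 h, 1.63 on the log2 scale (1.49 to 1.78).

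The loop at PLAGL2, a zinc finger transcription factor, and POFUT1, which adds fucose to Notch receptors, had H3K27ac contacts of 37, 90.9, 35.9, 248 and 162. Its H3K4me3 contact was 41.7, 61.5, 113, 43.1 and 27.5. The loop in ZBTB7A, a transcriptional repressor, had H3K27ac contacts of 27, 74.3, 31.6, 132 and 90.5. In all 5 of these loops, 16 h and 72 h lay above 30 m.

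The exceptions were longer loops between promoters and the loop at ID1. The 15 kb loop between the promoters of TNPO2, a nuclear import receptor, and of GET3 and TRIR had H3K27ac contacts of 26.7, 59, 24.6, 41.0 and 39.2, a log2 change from 30 m to 16 h of -0.53 (-0.79 to -0.27). The 15 kb loop between PRCC and HDGF had 28.5, 58.1, 28.8, 60.9 and 54.5. The loop at ID1, an inhibitor of helix-loop-helix transcription factors, had 25.3, 57.8, 26.9, 24.8 and 26.6. Of the 12 it was the loop with the largest fall at 16 h (-1.22, interval -1.54 to -0.91), and its H3K4me3 contact was highest at 30 m (36.4, 47.5, 44.8, 45.6 and 15.9).

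**Figure D4:**
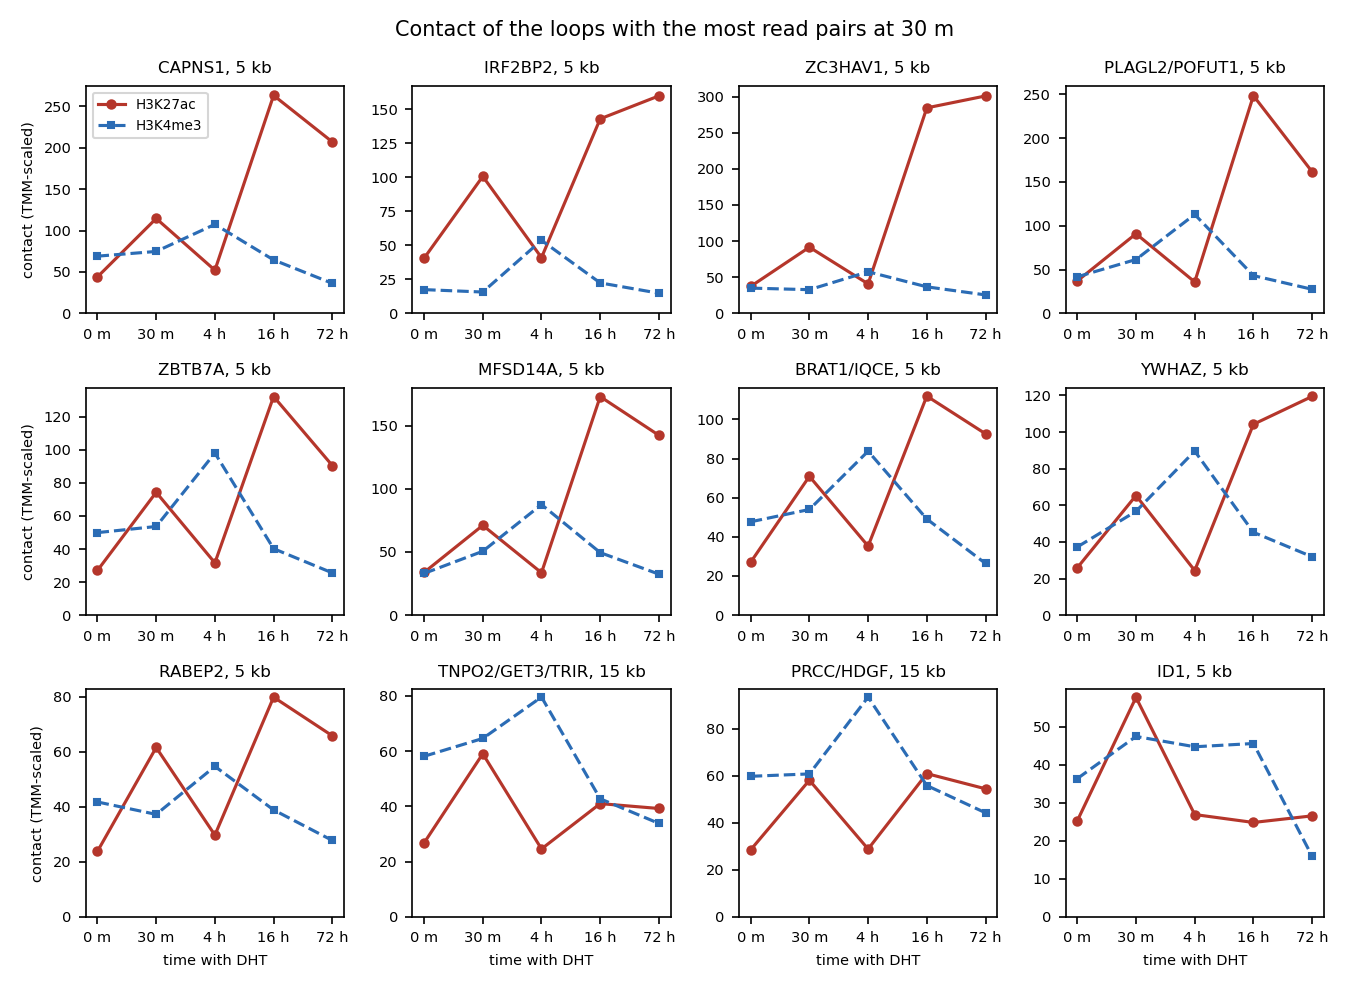
Contact (TMM-scaled signal, each panel with its own axis from 0) against time with DHT in the 12 loops with the most read pairs at 30 m, 1 per locus, with H3K27ac as circles and H3K4me3 as squares; titles give the genes and the distance between anchors. H3K27ac rose again above its 30 m value at 16 h in 10 of 12, and H3K4me3 was highest at 4 h in 11 of 12.

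Besides ID1, the strongest loops of the transient course lay at UBE2C, RNF26, TOP2A, ASF1B and PUS7. This set was chosen after the values were seen. At UBE2C, a ubiquitin-conjugating enzyme of the anaphase-promoting complex, the H3K27ac contact was 7.05, 22.0, 10.3, 9.55 and 10.3. At TOP2A, the topoisomerase of dividing cells, it was 5.58, 18.2, 8.55, 5.10 and 7.10. At ASF1B, a histone chaperone of replicating chromatin, it was 4.70, 12.6, 3.63, 4.88 and 5.00. The loops at RNF26, a ubiquitin ligase of the endoplasmic reticulum, and PUS7, a pseudouridine synthase, had 18.4 and 11.7 at 30 m and at most 8.68 and 5.29 at any other time. The log2 changes from 30 m to 16 h ran from -1.20 (UBE2C) to -1.83 (TOP2A) in these loops, which were chosen for such falls.

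The loops with the largest ratio at 30 m had fewer read pairs. Among loops of at least 30 read pairs, the 10 largest ratios of 30 m to the larger of 0 m and 4 h ran from 3.68 to 5.05. The largest was a 70 kb loop to the shared promoter of CHFR, a ubiquitin ligase of a mitotic checkpoint, and ZNF605. It held 4, 33, 3, 39 and 26 read pairs and had contacts of 1.18, 5.94, 0.641, 8.28 and 6.84. The 15 kb loop at HS6ST1, which sulfates heparan sulfate, held 6, 44, 7, 48 and 32 read pairs. The 65 kb loop between ZNF511 and ECHS1, a mitochondrial enzyme of fatty acid oxidation, held 8, 69, 13, 44 and 47. These loops kept a high contact at 16 h and 72 h.

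Others of this group fell back. The loop between an intergenic anchor and an intron of PIGX, a gene of GPI anchor synthesis, held 5, 35, 6, 6 and 11 read pairs, and that at TEDC1 held 6, 57, 12, 15 and 13. Their log2 changes from 30 m to 16 h were -2.31 (-3.85 to -1.04) and -1.69 (-2.61 to -0.85). The loop at SRRT, whose protein acts with the nuclear cap-binding complex, changed by -1.27 (-2.31 to -0.33). Of the 10 loops, 3 were higher at 16 h than at 30 m.

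The loop at NR2F1, an orphan nuclear receptor, had both a large ratio and many read pairs. Its H3K27ac contact was 7.35, 30.8, 4.91, 50.1 and 36.6, on 25, 171, 23, 236 and 139 read pairs. Its H3K4me3 contact was 3.1, 2.05, 27.7, 2.71 and 3.02, so the 4 h value, the lowest in H3K27ac, was the highest in H3K4me3. Between 0 m and 4 h, H3K4me3 rose by 3.16 on the log2 scale (2.30 to 4.18).

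At the threshold, loops on both sides had nearly equal values. Just inside, with ratios that round to 2, were the loops at UTP25 (23.9 at 30 m against 12 at 4 h), FNDC3A (13.7 against 6.84) and in SEPTIN9 (10.3 against 5.13). Just outside, with the same rounded ratio, were those near CDC25B (28.6 against 14.3), at CENPO and PTRHD1 (25.2 against 12.6) and in N4BP1 (21.8 against 10.9).

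In H3K4me3 the loops high at 30 m had no such course. Their mean H3K4me3 contact was 5.36, 5.72, 8.12, 5.52 and 4.40. Against 0 m, the log2 change of the sum was 0.09 at 30 m (0.07 to 0.11) and 0.60 at 4 h (0.58 to 0.61), with 0.04 at 16 h and -0.29 at 72 h. The other loops changed by 0.02, 0.26, 0.15 and -0.26. H3K4me3 contact was thus highest at 4 h, where H3K27ac contact was low by selection, and the rise to 4 h was larger than in the other loops, also with libraries at equal totals (0.36 against 0.04). The 4 h H3K4me3 library was also the deepest, by more than 2 times the next.

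The same rule applied to H3K4me3 was met by few of these loops. Of the 2370, 761 (32.1%) held at least 15 H3K4me3 read pairs at 30 m, and 2 of these (0.263%) had an H3K4me3 contact at 30 m of at least 2 times both 0 m and 4 h. Of the other loops it was 12 of 14696 (0.0817%). Over the whole H3K27ac set, among loops of at least 15 H3K4me3 read pairs at 30 m, it was 0.447%. The 30 m value was above both 0 m and 4 h in 156 of the 761 (20.5%), against 24.9% of the other loops, and 4 h was the highest time point in 508 (66.8%), against 45.0%. With libraries at equal totals these shares were 34.2% against 36.4% and 48.1% against 27.3%. With fewer read pairs allowed, H3K4me3 contact at 4 h was above 0 m in 1819 of all 2370 loops (76.8%), against 59.9% of the other loops. Of all 2370 loops, 146 (6.16%) had no H3K4me3 read pair at 30 m, against 7.10% of the other loops.

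The larger rise of H3K4me3 at 4 h was found with and without promoters. Between 0 m and 4 h its log2 change was 0.55 in the loops high at 30 m with no promoter, 0.61 with 1 and 0.61 with 2, against 0.08, 0.31 and 0.30 in the other loops. Among loops of at least 15 H3K4me3 read pairs at 30 m, the largest changes from 0 m to 30 m lay between UQCRC2 and VWA3A (2.18, interval 0.53 to 4.23), between PPP1R15A and DHDH (2.04, 0.54 to 3.84), between PHAX and TEX43 (1.95, 0.44 to 3.76) and at MDM2 (1.86, 0.33 to 3.68), the ubiquitin ligase of p53. PPP1R15A encodes a stress-induced phosphatase subunit. The lowest were at ZDHHC12 (-0.96, -1.75 to -0.22), BCL7B (-0.95, -1.92 to -0.04), between ATP6AP1 and PLXNA3 (-0.82, -1.64 to -0.05) and at EGR1 (-0.80, -1.67 to 0.02). The interval at EGR1 held 0. All these loops were picked as extremes, so intervals that leave out 0 are no test of a change. The highest ones named held 15 to 17 H3K4me3 read pairs at 30 m, near the minimum of 15.

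The loops high at 30 m were longer, richer in GC and more often at promoters than the other loops of at least 15 read pairs, but shorter than the whole set. Their median distance was 45 kb (range 5000 to 1380000 bases), against 15 kb in the other loops of at least 15 read pairs and 125 kb in the whole H3K27ac set. It was 20000 bases when at least 30 read pairs were asked for at 30 m and 77500 bases with a fold of 3. The selected loops held a median of 5 read pairs at 0 m and the other loops 15, and the minimum of 15 read pairs was set at 30 m, where the former were selected to be high. The median GC content of their anchors was 49.6% (quartiles 45.1% and 54.7%), against 46.3% in the other loops and 44.3% in the whole set. A promoter, here the window of 2500 bases each way from a protein-coding gene's start, lay at an anchor of 1726 loops (72.8%), against 43.3%. Promoters lay at both anchors in 22.5%, against 9.35%.

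Other features differed in the same way. The ratio of observed to expected CG dinucleotides was 0.421 at the median, against 0.315. Anchors in adjacent bins, 5 kb apart, made up 216 of the loops (9.11%), against 37.4% of the others. The H3K4me3 set held 51.2% of the loops high at 30 m, against 34.3%. The median number of GATC sites per bin, which MboI cuts to make the HiChIP fragments, was 15.5, against 14.5.

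Over the 3856 different anchors, 42.2% lay in promoters, 5.71% in exons, 38.2% in introns and 13.9% between genes. Anchors of the other loops lay in promoters in 16.9%, in introns in 56.5% and between genes in 20%. Anchors of the loops high at 30 m were therefore mostly promoters and introns.

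Short motifs were searched for on both strands of the 1 kb anchors. The androgen receptor half-site AGAACA was found in 45.1% of the anchors, against 52.3% of those of the other loops and 55.1% of those of the whole set. A pair of half-sites as AGAACA, 3 bases and TGTTCT lay in 0 of the 3856 anchors, against 14 of 54979 and 29 of 143648. The forkhead motifs TGTTTAC or TATTTAC were found in 22.0%, against 27.7% and 29.9%. The GC-box GGGCGG, bound by Sp1 and its relatives, was found in 37.9%, against 22.7% and 17.3%. Motifs rich in A and T were thus fewer and the GC-box more frequent in these anchors, which also had a higher GC content. A match is only a match of letters.

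The share of loops that met the rule rose with distance, GC content and promoters, against the 4.58% of all loops of at least 15 read pairs. By distance it was 1.16% from 5 to under 10 kb, 2.5% to 20 kb, 6.55% to 50 kb, 8.72% to 100 kb and 10.8% to 500 kb, with 10.1% beyond. By GC content, in 5 classes of equal size, it went from 1.91% over 3.34%, 4.86% and 5.62% to 7.20%. With no promoter it was 2.25%, with 1 it was 6.64% and with 2 it was 10.4%. Loops of 100 to 500 kb with promoters at both ends met it in 18.5%. The share was also higher with fewer read pairs, 6.48% at 15 to 19 against 3.3% at 60 or more, where counting error is smaller.

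GC content and promoters each went with the share at a fixed level of the other. Among loops with no promoter the share went from 0.964% in the lowest GC class to 3.65% in the highest, and with 2 promoters from 6.90% to 11.9%. Among loops of 100 to 500 kb it went from 4.01% to 13.8%, but among those of 5 to under 10 kb it went from 0.783% over 1.13%, 1.54% and 1.69% to 0.910%, so that no such rise reached the highest GC class there.

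**Figure D5:**
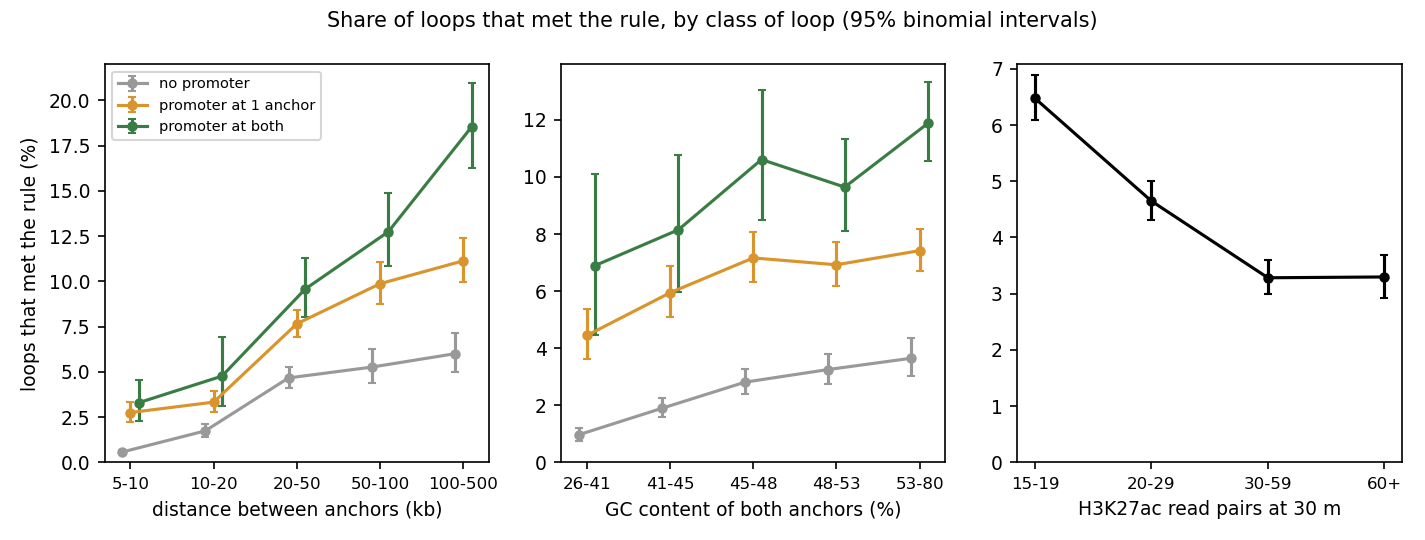
Percent of loops of at least 15 read pairs that met the rule, with 95% exact binomial intervals, by distance between anchors and number of promoters (left), by GC content of both anchors and number of promoters (middle) and by H3K27ac read pairs at 30 m (right). With promoters at both anchors the share reaches 18.5% at 100 to 500 kb, and by read pairs it goes from 6.48% to 3.3%.

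The 30 m H3K27ac library as a whole shifted with GC content. Over the whole H3K27ac set, summed contact changed between 0 m and 30 m by a log2 of -0.37 in the lowest GC class and -0.02, 0.18, 0.31 and 0.38 in the next ones. From 0 m to 4 h it was 0.00, 0.07, 0.10, 0.12 and 0.12. In H3K4me3 the change at 30 m went the other way, from 0.12 in the lowest class to -0.07 in the highest. With 1 deposited value per time point, a shift of the library and a change in the cells at 30 m cannot be told apart, and its part in the loops high at 30 m was not tested.

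A rule of the same form was applied to each time point in turn, which shows how the loops high at other times compare. A loop had to hold at least 15 read pairs at the time point and at least 2 times the contact of the time points before and after it. For 0 m these were 30 m and 4 h, and for 72 h they were 4 h and 16 h. In H3K27ac it was met by 2.05%, 4.58%, 5.16%, 2.41% and 1.64% of loops in the order of time. With H3K4me3 values, also over the loops of the H3K27ac set, it was met by 1.29%, 0.447%, 5.18%, 2.13% and 0.427%. Loops found only in the H3K4me3 set were not examined. The share at 4 h was the largest in both marks. At 30 m it was the second largest in H3K27ac and the second smallest in H3K4me3.

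Loops high at other times differed from these in promoters and GC content, but a greater length was shared by most of them. A promoter lay at an anchor of 72.8% of the H3K27ac loops high at 30 m, but of 20.9% of those high at 0 m and 12.7% of those high at 4 h. At the later times it was 49.0% (16 h) and 50.4% (72 h). In loops of at least 15 read pairs that did not meet the rule it was 39.0%, 43.3%, 36.8%, 41.1% and 41.5%. The median GC content of the loops high at each time was 39.6%, 49.6%, 41.6%, 45.1% and 45.9%. In those that did not meet the rule it was 45.5%, 46.3%, 45.25%, 45.25% and 45.4%. At 16 h and 72 h the GC content was thus close to this background. The median distance of the loops high at each time was 55, 45, 10, 70 and 45 kb. In those that did not meet the rule it was 10, 15, 10, 15 and 10 kb. Loops high at 0 m, 16 h and 72 h were thus also longer than this background, and those high at 4 h were not. These comparisons share libraries, so that loops high at 30 m and at 0 m or 4 h are not independent of each other.

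Along the genome the loops high at 30 m formed 1478 loci, of which 1018 held a single loop and 53 held at least 5, with 339 loops between them. Loops that shared an anchor with another loop high at 30 m met the rule in 11.5% of 11405, and those that shared none in 2.62% of 40306. Loops that share an anchor have its sequence in common and are not independent of each other. By chromosome, the share was highest on chromosome 19 (267 of 3084, 8.66%) and chromosome 16 (6.96%), and lowest on chromosome 15 (1.85%) and chromosome 13 (2.10%).

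The largest locus, chr19:12162001-13068000, held 15 of the loops, of 109 loops of at least 15 read pairs in its span. It joins promoters of zinc finger genes (ZNF44, ZNF443, ZNF791, ZNF799) and of TNPO2, GET3 and DNASE2, the lysosomal DNase. Its mean H3K27ac contact was 2.98, 7.59, 3.01, 4.49 and 5.51, with a log2 change from 30 m to 16 h of -0.76 (-0.96 to -0.56). The contact at 16 h and 72 h was below that at 30 m and above that at 0 m.

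The locus at chr19:1407001-1908000 held 12 of 65, around TCF3, a helix-loop-helix transcription factor whose promoter was at 8 of the loops. Its mean contact was 1.81, 5.11, 1.91, 3.72 and 3.93. The locus at chr7:98622001-98973000 held 11 of 21 (52.4%), around ARPC1A and ARPC1B, subunits of the actin-nucleating Arp2/3 complex, and SMURF1, a ubiquitin ligase. Its mean contact was 1.76, 6.76, 2.53, 8.96 and 9.19, and so passed its 30 m level at 16 h by 0.41 on the log2 scale (0.21 to 0.60).

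The locus at chr19:49662001-50168000 held 10 of 58, with contacts of 2.5, 6.42, 2.14, 4.97 and 4.45. Its anchor chr19:49957001-49958000, at the promoters of ALDH16A1 and PIH1D1, a chaperone cofactor, was the one with the most loops high at 30 m, 9 of 18. The loci at chr16:89232001-89723000 and chr16:1877001-2258000 held 9 each, of 94 and 65. The first was as high at 16 h as at 30 m (4.02, 11.6, 4.34, 12.2 and 9.41), and the second was lower (2.97, 8.14, 3.63, 5.35 and 5.53). In all 6 loci H3K4me3 contact was higher at 4 h than at 0 m, by 0.32 to 0.99 on the log2 scale.

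Few anchors held many of these loops. Of the 3856 anchors, 3243 belonged to 1 loop high at 30 m and 21 to at least 5. Among anchors of these loops, 1290 held at least 5 loops of at least 15 read pairs, with a median share of 18.2% high at 30 m. In 54 of them at least as many loops met the rule as did not. Promoters with at least 5 such loops were picked for their large shares. They were ARPC1A (6 of 8), PRDM15 (6 of 9), ASF1B (5 of 7) and AXIN2, an inhibitor of Wnt signalling (5 of 8). NUP133, a nuclear pore subunit, and KDM3B, a histone demethylase, also had 5 of 8.

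Of the 10061 protein-coding genes whose promoter lay at a loop of at least 15 read pairs, 1963 (19.5%) lay at a loop high at 30 m. The gene lists were chosen with earlier results of these data known, and their counts are descriptions. Among androgen-induced genes it was 1 of 24 (4.17%). Of the immediate early genes, which respond to stimuli within minutes, it was 3 of 22 (13.6%), namely EGR1, JUND and EGR2. At EGR1, a zinc finger transcription factor, the contact was 6.76, 14.4, 6.41, 11.3 and 12.4.

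The shares were higher among luminal transcription factors, with 4 of 13 (30.8%), and among androgen receptor coregulators, with 6 of 20 (30.0%). The former included FOXA1, the pioneer factor of the luminal prostate, TBX3 and CREB3L4. The 530 kb loop at FOXA1 had contacts of 1.18, 4.32, 1.71, 6.58 and 7.63, on 4, 24, 8, 31 and 29 read pairs. The coregulators included MED12 and EP300, a Mediator subunit and an acetyltransferase that makes H3K27ac, with NCOA4, SMARCA4 and ARID1A. At MED12 the contact was 4.70, 13.7, 6.41, 15.9 and 10.3.

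Of the ribosomal protein genes, 9 of 75 (12%) lay at a loop high at 30 m. At RPS13 the contact was 9.99, 29.1, 10.3, 15.3 and 18.7, and its H3K4me3 contact was 46.0, 49.9, 63.2, 59.2 and 33.8. Of the zinc finger genes of chromosome 19, many of which repress transposable elements, it was 48 of 178 (27%), and of the histone genes of chromosome 6 it was 7 of 36 (19.4%). A list of genes whose nascent RNA the study placed highest at 30 m had 5 of 33 (15.2%), among them DVL3, of Wnt signalling, with contacts of 9.99, 20.9, 10.3, 15.5 and 10.0. That list was chosen on cells of the same treatment and is no independent evidence. The shares of the smaller lists each rest on 1 to 9 genes.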

How the data were processed

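H3K27ac and H3K4me3 HiChIP of LNCaP cells was analysed from 10 deposited tables, 1 per mark and time point, each with the same 574817 rows, which are loops between 1 kb anchors and list 68822 loops in both sets. Per the submitters' processing notes, reads were handled with Trim Galore 0.5.0, HiC-Pro 3.1.0 and Bowtie2. The deposited values are contact signal, which the authors scaled by TMM among the time points of a mark after calling loops in 5 kb bins of hg19 on the reads of all time points together. Whether both H3K27ac replicates entered a value is not given in the sources used here.

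Read pairs were recovered by dividing each value by the smallest non-zero value of its table (100% whole within 1e-06). Loop features came from the GRCh37 sequence and Gencode release 44 lifted to GRCh37. A promoter reached 2.5 kb each way from a protein-coding gene's start and had to overlap an anchor. Loops joined a locus where they shared an anchor or had anchors in the same or next bin. Intervals are exact for ratios of Poisson counts and for binomial shares, and cover counting error only.

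Loops named are the 12 loci with the most read pairs at 30 m, the 10 largest ratios, the 6 loci with the most loops, the 3 nearest the threshold on each side, and the 5 highest and lowest H3K4me3 ratios, of which some are described. Up to 4 genes per list were named, and all genes of short lists, the latter after values were seen, as were the loops of the transient course, the promoters with many loops and the PLD5 loop. Some genes and anchor sequences are not reported here. Members and lists were chosen with earlier results of these data known. The same values over the other loops under 3 of the alternatives were added after seeing the data. Alternatives varied the scaling, the read pair minimum, the fold, the length, the weight of loops and the window for overlaps. Scripts were tested on simulated data, with Python 3.11.15, numpy 2.4.6, pandas 2.3.3, scipy 1.17.1, matplotlib 3.10.9 and pysam 0.24.0.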

Additional observations from a re-analysis of the deposited data

How the results depend on the processing

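No paired analysis was possible because each loop has 1 deposited value at a time point, and no replicate could be left out for the same reason. In the order of the share of loops that met the rule, the log2 changes of summed H3K27ac contact at 16 h and 72 h against 30 m, those of H3K4me3 at 30 m and 4 h against 0 m, and the share of loops with H3K4me3 highest at 30 m among 0 m, 30 m and 4 h, the values as reported were 4.58%, 0.00, -0.09, 0.09, 0.60 and 20.5%. With libraries scaled to equal totals they were 3.88%, -0.18, -0.20, 0.064, 0.36 and 34.2%. With at least 30 read pairs they were 3.29%, 0.20, 0.053, 0.13, 0.69 and 11.9%, with a median length of 20000 bases, promoters at 76.5%, 579 loci and 28 genes of the lists, so that the change at 72 h turned positive. With a fold of 3 they were 0.634%, -0.24, -0.30, 0.053 and 0.65, with 77500 bases, 300 loci and 15 genes. With a fold of 1.5 they were 16.0%, 0.12, -0.022, and 0.50 for H3K4me3 at 4 h, with a share of 17.5%, 30000 bases, promoters at 68.7%, 3200 loci and 188 genes. In loops of at least 20 kb they were 8.19%, -0.36, -0.37, 0.028, 0.44 and 26.1%, with a GC content of 50.5% and promoters at 75.5%. With 1 loop per locus the changes were 0.094 at 16 h, -0.030 at 72 h and 0.63 for H3K4me3 at 4 h, with 35000 bases, a GC content of 48.7% and promoters at 68.1%. With 5 kb bins as windows, promoters lay at 76.2%. In loops outside the H3K4me3 set, H3K4me3 changed by 0.0425 at 30 m and 0.45 at 4 h, with a share of 27.7%. The cause of these shifts was not tested. The other 25 values moved by less than their counting interval or by less than 1.5 times for counts. Depth limits what single loops show, since the counting interval of the 16 h ratio to 30 m held 1 in 76.5% of them.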
